A study of Homo sapiens with 15 samples.

Results

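The nuclear genes for subunits of the oxidative phosphorylation machinery were followed through human neuromesodermal progenitors and the neurons and skeletal muscle made from them. Members were taken by gene symbol alone: NDUFA, NDUFB, NDUFC, NDUFS and NDUFV genes followed by a number, SDHA to SDHD, symbols beginning with UQCR, CYC1, numbered COX4 to COX8 genes and symbols beginning with ATP5. This gave 83 of the 17999 genes in the deposited expression table, of which 36 were assigned to complex I, 4 to complex II, 10 to complex III, 14 to complex IV and 19 to complex V. NDUFA4 was counted with complex IV, where its protein works, although its symbol reads as complex I. The symbols also took in ATP5IF1, an inhibitor of the ATP synthase, and the near-copies UQCRHL and ATP5MGL, and they left out COX4I1, COX4I2 and NDUFAB1, which are given separately.

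Complexes I to IV form the respiratory chain of the inner mitochondrial membrane: they pass electrons from NADH and succinate to oxygen, and complexes I, III and IV pump protons as they do so. Complex V, the ATP synthase, lets the protons return and makes ATP. Most subunits are nuclear genes translated in the cytosol and imported, a smaller set is made inside the mitochondrion, and complex II is wholly nuclear. A few subunits of complex IV exist as tissue isoforms, among them COX6A2 and COX7A1, which in heart and adult skeletal muscle take the place of the widely expressed COX6A1 and COX7A2.

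RNA came from 15 cultures, all labelled wild type, of H1 or HUES9, long-used lines of human embryonic stem cells. Self-renewing neuromesodermal progenitors (srNMPs), which can form spinal cord neurons and paraxial muscle, were sampled at passage 8 and at passage 25. Progenitors after 7 days of neural induction carried the labels RABC and RASS, which the labels do not spell out, and dorsal neurons and ventral neurons were the later neural cultures. Each of these 6 groups held 1 H1 library (replicate 1) and 1 HUES9 library (replicate 2). The embryonic stem cells (ESCs), muscle cultures at day 40 and muscle cultures at day 50 were each 1 HUES9 library, so they have no replicate of their own. The 2 lines are the only replicates, and nothing in the labels says that cultures were otherwise independent, so p-values measure the spread between these libraries.

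Levels are in FPKM, which divides the fragments of a gene by its transcript length and by library size and so allows genes of different length to be set side by side. Total FPKM was 290306 to 421109 per library, 10785 to 12102 genes reached 1 FPKM, and the depth recovered from the lowest values was 0.954 to 1.051 of the mean library. Summed markers of ESCs, srNMPs, neurons and muscle were highest in the libraries with those labels. Of 6 srNMP markers 4 were at 1 FPKM or more in all srNMP libraries, and 1 was lower in srNMPs than in ESCs. Neural progenitor markers overlapped, at 685 to 1227 FPKM in 7-day progenitors and 364 to 697 in srNMPs. Skeletal muscle markers summed to 4913 to 7510 FPKM in muscle cultures, with 12 of 12 at 1 FPKM or more, against at most 13.8 FPKM in srNMPs. Fibroblast markers were also high in the muscle cultures, at a sum of 11404 to 18546 FPKM with 7 of 7 at 1 FPKM or more in both. Cardiac markers summed to 1.99 to 2.27 FPKM there, with 3 of 8 at 0.

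By state mean the members together were most abundant in ESCs and least abundant in muscle. Their summed level was 9784 FPKM in the ESC library, 8351 ± 2256 FPKM (SD, n = 4) in srNMPs, 5964 ± 515 (SD, n = 4) in 7-day progenitors, 5612 ± 351 (SD, n = 4) in neurons and 3948 ± 438 (SD, n = 2) in muscle. As a share of all FPKM this was 2.60%, 2.22%, 1.83%, 1.90% and 1.31% in the same order. The libraries of progenitors and of neurons overlapped, so the order of these 2 states is not resolved, and both muscle libraries lay below the rest. These are bulk cultures, and fewer cells rich in a transcript cannot be told apart from less of it per cell.

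**Figure D1:**
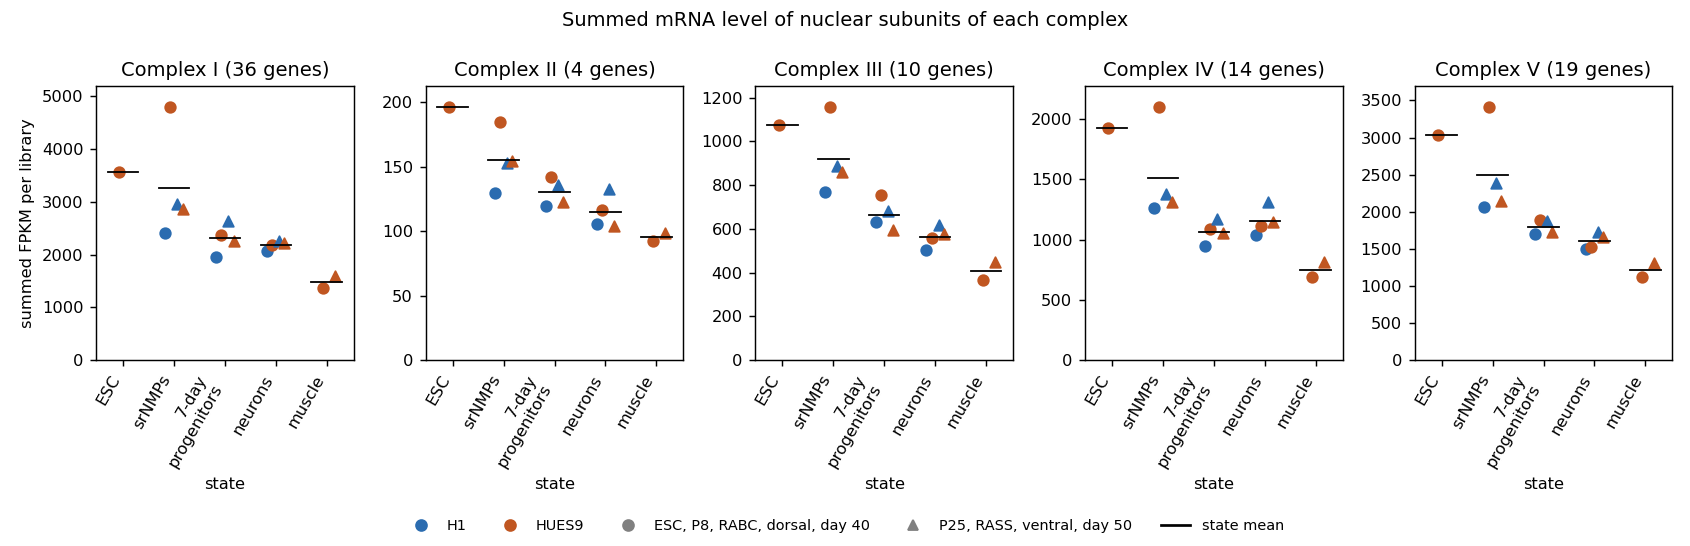
Summed FPKM of the nuclear members of each complex (y axis) in every library, by state (x axis). Points are libraries, colours are cell lines, circles and triangles separate the 2 groups of a state, and lines are state means; both muscle libraries are the lowest in each panel, and the HUES9 passage 8 srNMP library (4802 FPKM for complex I) is the highest srNMP library.

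The means of all 5 complexes were likewise highest in ESCs and lowest in muscle. Complex I summed to 3262 ± 1054 FPKM (SD, n = 4) in srNMPs and 1475 ± 156 (SD, n = 2) in muscle. Complex II, the smallest, went from 155 ± 22.5 to 95.6 ± 4.15 FPKM. For complex III the sums were 920 ± 167 and 407 ± 56.9 FPKM, and for complex IV 1515 ± 395 and 752 ± 90.3 FPKM. In neurons complex IV was at 1151 ± 114 FPKM, slightly above the 1065 ± 93.4 of 7-day progenitors and within the spread of both, while complex V was at 1599 ± 109 FPKM in neurons and 1796 ± 99.8 in progenitors.

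Levels differed widely among members of the same complex. NDUFS5, an accessory subunit of complex I, was the most abundant member in every state, at 700 ± 366 FPKM in srNMPs (n = 4) and 264 ± 27.8 in muscle (n = 2). In srNMPs 29 of the 80 members that passed the filter stood at 100 FPKM or more on average, 45 between 10 and 100, 4 between 1 and 10, and 2 below 1 FPKM. In muscle 8 stood at 100 FPKM or more and 61 between 10 and 100. The filter asked for 1 FPKM in at least 1 library. ATP5MGL, COX7A1 and COX8C did not reach it and were not tested.

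One srNMP library stood apart and bears on every comparison with srNMPs. The HUES9 passage 8 library held 11663 FPKM of members, more than the ESC library, and the other 3 srNMP libraries held 6639 to 7758 FPKM. At passage 8 HUES9 exceeded H1 for 74 of 80 members, by a median log2 difference of 0.76, while the median over all 14129 genes that passed the filter was -0.01. Genes with transcripts under 1000 bases differed by a median of 0.11 and those of 3000 bases or more by -0.25 in this pair, and 62 of the 80 members have transcripts under 1000 bases. In the other 5 groups with both lines the median member differed by -0.12 to 0.14. The comparisons of ESCs, 7-day progenitors, neurons and muscle with srNMPs are therefore also given without it. Where values of 4 libraries are listed, H1 comes before HUES9 within passage 8 and passage 25, within RABC and RASS, or within dorsal and ventral neurons.

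**Figure D2:**
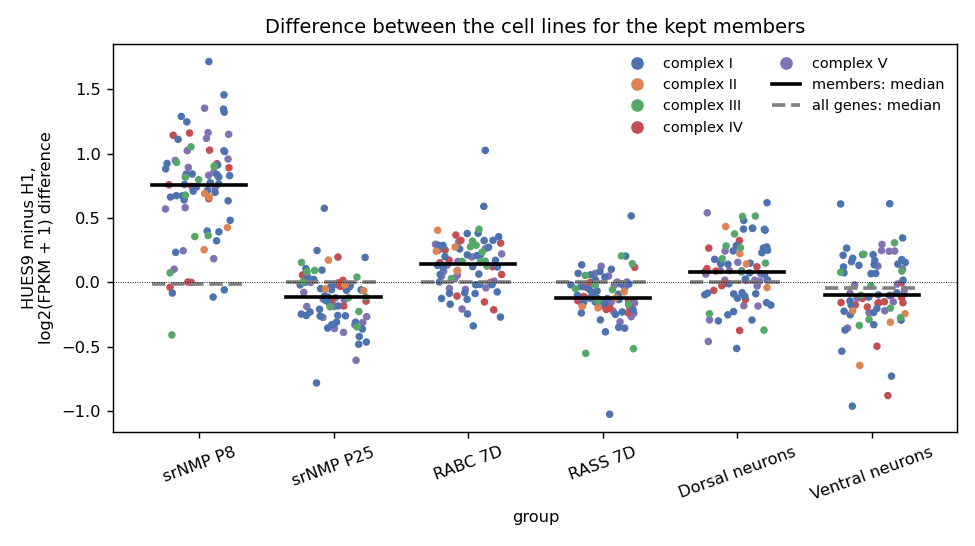
HUES9 minus H1 difference in log2(FPKM + 1) (y axis) for each of 80 members in the 6 groups with both lines (x axis). Points are members coloured by complex, black lines their medians and dashed grey lines the median of all genes; only at srNMP passage 8 does the member median (0.76) lie far from that of all genes.

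Muscle cultures were compared with srNMPs to ask how subunit transcripts differ at the end of the muscle route. Most members were lower in muscle, and COX6A2 was the exception, present in muscle and near 0 elsewhere. On log2(FPKM + 1), with 1 limma model over all libraries, 60 of 80 members were called lower and 1 higher at an adjusted p under 0.05 (Benjamini-Hochberg over all genes). The member called higher is COX6A2, which reached 1 FPKM in muscle libraries alone and so passed the filter through the group where it is high; its call is a description and no support. Of all genes 31.6% were called lower and 18.2% higher. The median member differed by -1.03 and the median gene by -0.22. Every muscle library lay below every srNMP library for 70 of 80 members, and 43% of all genes showed the same separation; COX6A2 alone lay above, as did 24.6% of genes. The exceptions were ATP5F1D, ATP5F1E, ATP5MK, COX6A2, COX6B2, NDUFA1, NDUFS1, NDUFV3, SDHD and UQCRQ.

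**Figure D3:**
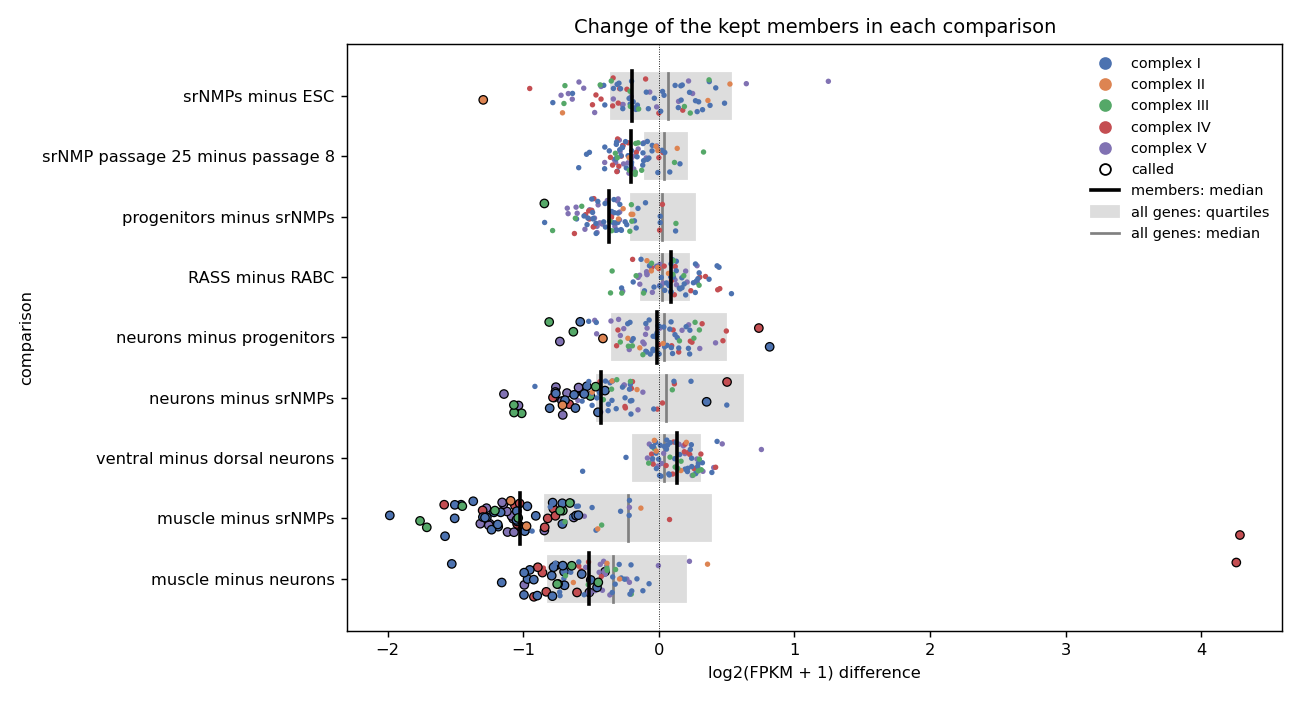
Difference in log2(FPKM + 1) (x axis) of 80 members in each of 9 comparisons (y axis). Points are members coloured by complex, outlined where called; black lines are member medians, grey boxes and lines the quartiles and median of all 14129 genes. In muscle minus srNMPs the member median is -1.03 and COX6A2 stands alone at 4.28.

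Complex I takes electrons from NADH. Of its 36 members 25 were called lower in muscle than in srNMPs and 0 higher, with a median of -0.98. Among the 7 subunits of its catalytic core 6 were called lower, and among 29 accessory subunits 19. NDUFV1, the core subunit that binds NADH and FMN, was at 55.3, 77.7, 70.9 and 67.9 FPKM in srNMPs and at 45.5 and 45.3 FPKM in muscle at day 40 and 50. The groups do not overlap, and the difference of -0.59 ± 0.18 (SE) had an adjusted p of 0.0303 in limma.

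NDUFA7, an accessory subunit, showed the largest difference of any member called lower. It was listed at 55.6, 87.3, 66.8 and 72 FPKM in the 4 srNMP libraries and at 14.4 and 21.8 FPKM in muscle. The muscle values lie far under the srNMP range, with a difference of -1.98 ± 0.31 (SE, limma adjusted p = 0.00183). NDUFA2, another accessory subunit, fell from 77.8 ± 22.1 FPKM (SD, n = 4) to 26.4 ± 1.96 (n = 2), a difference of -1.58 ± 0.23 (limma adjusted p = 0.00138). NDUFS1, the large core subunit with iron-sulfur clusters, was at 9.87 to 12.3 FPKM in srNMPs and 8.75 and 10.2 in muscle; these ranges overlap and the difference of -0.22 ± 0.13 did not pass (limma adjusted p = 0.203).

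Complex II, succinate dehydrogenase, joins the citrate cycle to the chain. The flavoprotein SDHA (-0.98 ± 0.23, limma adjusted p = 0.0105) and the membrane anchor SDHC (-1.09 ± 0.17, limma adjusted p = 0.00176) fell, 2 of 4 members. SDHB, the iron-sulfur subunit, was listed at 34.8, 55.7, 44.6 and 43.0 FPKM in srNMPs and 32.3 and 32.8 FPKM in muscle. Its values were lower in both muscle libraries than in any srNMP library, yet the difference of -0.45 ± 0.20 did not pass (limma adjusted p = 0.0949). SDHD, the other anchor, was at 19.0 and 20.7 FPKM in muscle, inside the srNMP range of 17.5 to 28.9 (-0.13 ± 0.23, limma adjusted p = 0.681).

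Complex III passes electrons from ubiquinol to cytochrome c, and 8 of its 10 members were called lower. UQCRC1, a core protein on the matrix side, was at 135, 174, 161 and 172 FPKM in srNMPs and at 43.4 and 53.4 FPKM in muscle. No muscle library came near the srNMP range, and the difference was -1.76 ± 0.18 (limma adjusted p = 0.000303). UQCRH, the hinge protein, fell from 316 ± 93.4 FPKM to 117 ± 13.6 (-1.45 ± 0.29, limma adjusted p = 0.00527). Its near-copy UQCRHL followed at -1.71 ± 0.17 (limma adjusted p = 0.000262), but reads of the pair may have been shared and the UQCRHL values are uncertain.

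Complex IV, cytochrome c oxidase, reduces oxygen. Of its 12 tested members 10 were called lower and 1 higher. COX5A, which binds the matrix face of the catalytic core, was at 72.5, 149, 89.6 and 81.8 FPKM in srNMPs and 28.6 and 36.0 FPKM in muscle. Both muscle values are under every srNMP value, with a difference of -1.58 ± 0.26 (limma adjusted p = 0.00255). COX8A (-1.30 ± 0.20, limma adjusted p = 0.00194) and COX6B1 (-1.02 ± 0.24, limma adjusted p = 0.0113), small structural subunits, fell too. NDUFA4 went from 70.3 ± 19.8 FPKM to 41.0 ± 4.10 (-0.76 ± 0.21, limma adjusted p = 0.0221).

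COX6A2 was found at an appreciable level in the muscle cultures alone. It was listed at 17.2 FPKM at day 40 and 19.9 FPKM at day 50, at 0 in the ESC library and all 4 srNMP libraries, and at no more than 0.077 FPKM in any neural library. The difference in log2(FPKM + 1) was 4.28 against srNMPs and 4.26 against neurons. No test is given for it, since the filter admitted the gene through the muscle libraries, and a ratio to a value of 0 cannot be formed. The widely expressed partner COX6A1 was lower in muscle, as most members were. It was at 219 to 344 FPKM in srNMPs, 195 to 242 in neurons, and 122 and 136 FPKM in muscle. Its difference against srNMPs was -1.06 ± 0.20 (limma adjusted p = 0.00404), near the medians of -1.03 for all members and -0.93 for complex IV. COX6A2 thus made up 12.4% of the pair at day 40 and 12.7% at day 50, and COX6A1 remained the more abundant isoform.

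**Figure D4:**
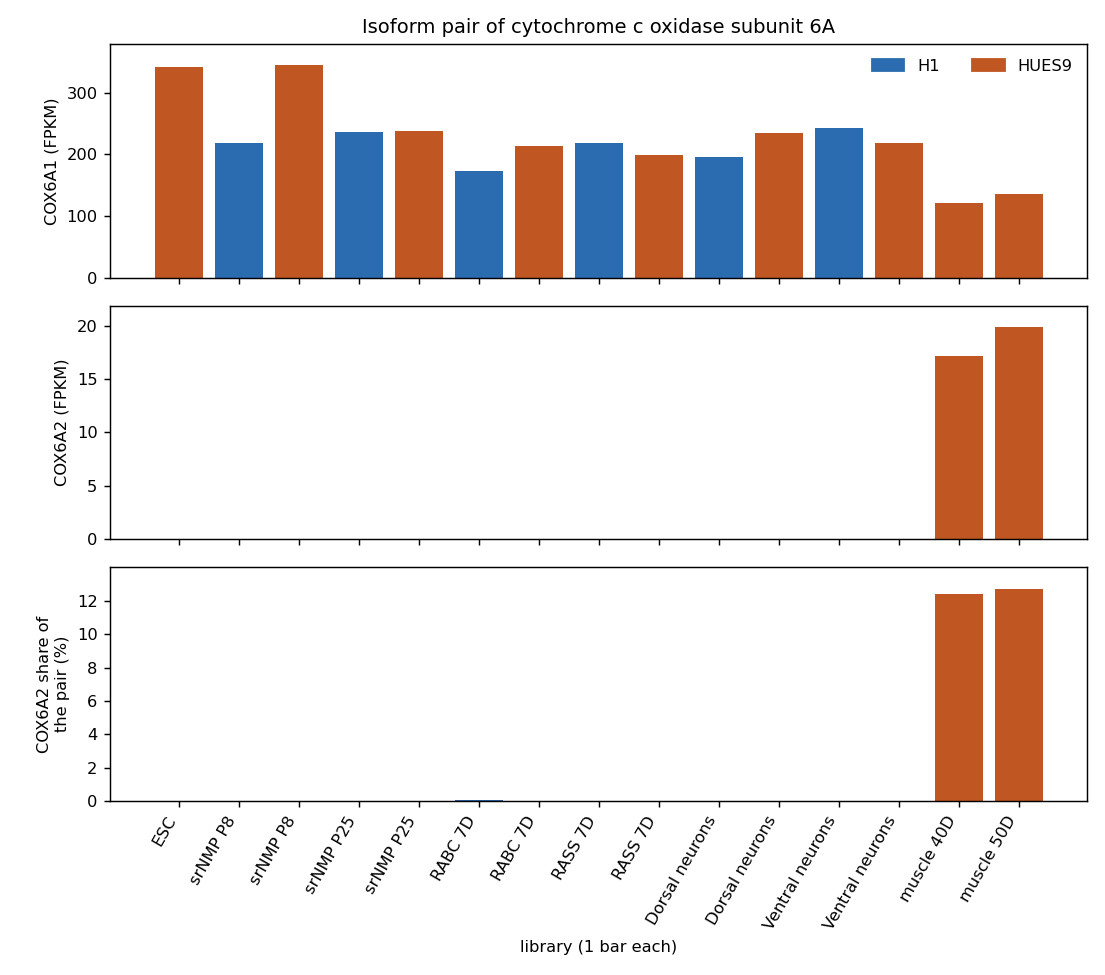
FPKM of COX6A1, FPKM of COX6A2 and the share of COX6A2 in their sum, in percent (y axes, top to bottom), in each library (x axis, 1 bar per library, coloured by cell line). COX6A2 is seen in the 2 muscle libraries, at 17.2 and 19.9 FPKM, where COX6A1 is lowest.

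The regions before the starts of these isoform genes are shown because COX6A2 marked the muscle libraries and COX6A1 was present in all. They are the 250 bases upstream of the RefSeq gene start in GRCh38.p14, on chr12:120437863-120438112 (plus strand) for COX6A1 and chr16:31428361-31428610 (minus strand) for COX6A2, 5′ to 3′ along the gene. Capitals mark matches to the E-box letters CANNTG, the core to which myogenic and other basic helix-loop-helix factors bind.
COX6A1: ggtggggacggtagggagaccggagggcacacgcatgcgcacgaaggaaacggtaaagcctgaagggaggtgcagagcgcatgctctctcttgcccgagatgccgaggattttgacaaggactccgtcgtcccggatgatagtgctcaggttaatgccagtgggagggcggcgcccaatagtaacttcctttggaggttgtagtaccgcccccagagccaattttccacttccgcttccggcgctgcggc
COX6A2: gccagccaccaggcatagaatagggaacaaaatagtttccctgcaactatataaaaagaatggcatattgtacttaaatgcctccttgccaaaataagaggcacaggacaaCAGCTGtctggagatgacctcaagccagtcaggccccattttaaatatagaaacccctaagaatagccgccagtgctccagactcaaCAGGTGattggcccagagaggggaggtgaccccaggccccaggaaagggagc
The window of COX6A2 holds 2 such matches and that of COX6A1 holds 0. Matches are common: 60.6% of the promoters of all tested genes hold one within 250 bases before and 50 after the start, so the letters describe the sequence and name no site.

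The other tissue isoforms were listed at 0 or below 1 FPKM in the muscle cultures. COX7A1 was listed at 0 in 14 libraries, both muscle ones included, and at 0.623 FPKM in ESCs, while COX7A2 was at 26.0 and 31.6 FPKM in muscle and 40.2 to 77.0 in srNMPs (-0.78 ± 0.25, limma adjusted p = 0.0365). With totals made equal, COX7A2 no longer passed (adjusted p = 0.0862). COX8C, known from testis, was at 0.053 and 0.221 FPKM in muscle and at most 0.375 FPKM in any library, against 77.2 FPKM or more of COX8A. COX7B was at 17.3 and 23.3 FPKM in muscle and 29.9 to 50.8 in srNMPs (-0.82 ± 0.22, limma adjusted p = 0.0197), and it too did not pass at equal totals (adjusted p = 0.0550).

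Complex V had 15 of 18 tested members called lower in muscle. ATP5F1B, the catalytic beta subunit of the F1 head, was at 444, 477, 431 and 397 FPKM in srNMPs and 182 and 225 FPKM in muscle. Every srNMP value is above both muscle values, and the difference was -1.09 ± 0.14 (limma adjusted p = 0.000903). The 3 genes for the proton-carrying c subunit, ATP5MC1, ATP5MC2 and ATP5MC3, which encode the same mature protein, fell by similar amounts, -1.12 ± 0.26, -1.27 ± 0.16 and -1.15 ± 0.23 (limma adjusted p = 0.0104, 0.000738 and 0.00569). The inhibitor ATP5IF1 fell along with the enzyme, from 104 ± 22.8 FPKM to 41.7 ± 3.33 (-1.25 ± 0.22, limma adjusted p = 0.00352).

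The muscle libraries differ from srNMPs in more than these genes. The proliferation markers summed to 62.9 and 65.3 FPKM in muscle and 395 to 480 in srNMPs, and fibroblast markers to 3.74 to 12.2 FPKM in srNMPs; their part in the result was not tested. Short transcripts were lower as a class: of all 3263 genes under 1000 bases 39.5% were called lower, with a median of -0.43, while the 62 members in that class had a median of -1.03. Without the HUES9 passage 8 library 54 members (30.6% of all genes) were called lower with a median of -0.71, and with totals made equal 48 were (21.9% of all genes), with a median of -0.71 beside -0.01 for all genes. Without the day 40 muscle library, which leaves 1 muscle library, the member median was -0.91. A fit on the srNMP and muscle libraries alone, with fewer degrees of freedom, called 1 member lower. The share of all genes called in that fit is not given here, so this count has no background beside it.

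Muscle set against neurons asks how the end points of the muscle and neural routes differ. In the main fit the share of members called lower was not far from that of all genes. Of 80 members 30 were called lower, and COX6A2, admitted through muscle as above, was the 1 called higher, where 31.9% of all genes were called lower and 14.6% higher. The median member differed by -0.52 and the median gene by -0.34. At equal totals 42 members were called in either direction, where the main fit called 31 with COX6A2 included. The share of all genes called at equal totals is not given here. Among members called lower the largest differences were in complex I: NDUFA7 was at 39.8 to 66.6 FPKM in neurons (-1.53 ± 0.31, limma adjusted p = 0.00613) and the core subunit NDUFS7 at 14.9 to 23.0 FPKM in neurons and 7.17 and 8.55 FPKM in muscle (-1.16 ± 0.19, limma adjusted p = 0.00253). The accessory subunits NDUFA12 (-0.99 ± 0.23, limma adjusted p = 0.0115) and NDUFA5 (-0.99 ± 0.24, limma adjusted p = 0.0139) and the inhibitor ATP5IF1 (-0.99 ± 0.22, limma adjusted p = 0.0100) followed.

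In muscle against neurons 17 of 36 members of complex I were called lower, 4 of 10 of complex III and 5 of 12 of complex IV. Complex V had 4 of 18 called lower, and complex II had 0 of 4 called, with 1 at an unadjusted p under 0.05. SDHD was 1 of the 2 members, with COX6A2, whose muscle libraries (19.0 and 20.7 FPKM for SDHD) stood above all neuron libraries (12.4 to 17.1), as 19% of genes did; its difference of 0.36 ± 0.23 did not pass (limma adjusted p = 0.247). Muscle lay below neurons in every library for 56 of 80 members, a separation shown by 46.4% of all genes. The count called lower was 6 without the day 40 muscle library (20.4% of all genes), 19 without the H1 dorsal neuron library (28.7%), 16 without the HUES9 one (24.2%), and 8 in HUES9 libraries alone (22.3%).

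Between day 40 and day 50 of muscle culture, with 1 library each and so no test, 73 of 80 members were higher at day 50. The median difference was 0.23 for members and 0.06 for all genes, of which 61.1% were higher. No member differed by more than 1 on the log2 scale, a size passed upward by 0.722% and downward by 0.835% of genes. NDUFA7 had the widest gap, from 14.4 to 21.8 FPKM (0.56), and ATP5IF1 went the other way, from 44.0 to 39.3 FPKM (-0.16).

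Neurons were compared with srNMPs as the end of the neural route. They had 28 of 80 members called lower and 2 higher, while 23.2% of all genes were called lower and 28.8% higher, and the median was -0.43 for members and 0.05 for all genes. The same srNMP libraries serve as reference here and for muscle. Complex V held 11 of the 28 members called lower, out of 18 tested. ATP5MC3 went from 80.5 ± 22.1 FPKM (SD, n = 4) in srNMPs to 35.2 ± 3.99 (n = 4) in neurons (-1.14 ± 0.18, limma adjusted p = 0.00203), and ATP5MC2 from 110 ± 9.17 to 53.5 ± 8.05 FPKM (-1.03 ± 0.12, limma adjusted p = 0.000744).

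All neuron libraries lay below all srNMP libraries for 32 members (19.8% of genes) and above them for COX6B2, NDUFA10 and NDUFS1 (25.4% of genes). In complex III 5 of 10 members fell in neurons. UQCRC1 was at 70.9, 92.4, 86.3 and 68.3 FPKM in neurons, all below the srNMP values of 135 to 174 (-1.01 ± 0.14, limma adjusted p = 0.00134), and UQCRH at 147 ± 17.4 FPKM (-1.07 ± 0.22, limma adjusted p = 0.00645). Complexes I and IV were less often called, with 9 of 36 and 2 of 12 lower; whether complexes differ in this was not tested. COX6A1 (-0.20 ± 0.15, limma adjusted p = 0.30) and COX7A2 (0.11 ± 0.19, limma adjusted p = 0.652) did not pass.

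Of the 2 members called higher in neurons, NDUFS1 was at 13.1, 14.5, 13.5 and 15.3 FPKM, above every srNMP library (0.35 ± 0.10, limma adjusted p = 0.0218). The other, COX6B2, a subunit known from testis, was at 0.157 to 1.13 FPKM, too low to weigh beside the 191 to 256 FPKM of its partner COX6B1 (a difference of 0.50). It reached 1 FPKM in the H1 ventral neuron library alone and passed the filter through it, so its call is no support. The count of members called lower depended on single libraries: it was 59 (24.7% of all genes) without the H1 passage 8 srNMP library and 12 (16.7%) without the H1 passage 25 one. It was 14 (16.5%) and 15 (18.9%) without the H1 and the HUES9 dorsal neuron library, and 16 (17.9%) without the HUES9 ventral one. Without the HUES9 passage 8 srNMP library 23 were called lower (21.2%), and the member median was -0.21. At equal totals 14 were called lower and 7 higher, counts for which the share of all genes is not given here. The median member moved from -0.43 in the main fit to -0.10, and the median gene from 0.05 to 0.29. Both medians thus changed with the scaling, and the median member stayed below the median gene.

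Against the 7-day progenitors, neurons had members called in both directions. There were 5 members called lower and 2 higher, with 16.5% and 21.3% of all genes called. At equal totals the balance turned, with 3 lower (12.8% of genes) and 7 higher (25%), and quantile normalization gave 7 lower (21.1%) and 6 higher (18.2%). UQCRC1 fell from 139 ± 11.5 FPKM (SD, n = 4) to 79.5 ± 11.7 (-0.81 ± 0.14, limma adjusted p = 0.00498), and ATP5MC2 from 88.7 ± 3.46 to 53.5 ± 8.05 FPKM (-0.73 ± 0.12, limma adjusted p = 0.00438). CYC1, the cytochrome c1 of complex III, was at 45.0 to 60.3 FPKM in progenitors and 27.3 to 39.4 in neurons (-0.63 ± 0.17, limma adjusted p = 0.0248). NDUFA6 and SDHC were the others called lower, by -0.58 ± 0.17 and -0.41 ± 0.13 (limma adjusted p = 0.0308 and 0.0429).

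The members that rose from progenitors to neurons were a subunit of complex IV and an accessory subunit of complex I. COX7A2 was at 29.4, 26.4, 37.5 and 33.8 FPKM in progenitors and 50.9, 46.3, 61.6 and 55.2 FPKM in neurons, without overlap (0.74 ± 0.19, limma adjusted p = 0.0230). NDUFA5 was at 6.11 to 8.62 FPKM and then 10.3 to 15.3 FPKM (0.82 ± 0.19, limma adjusted p = 0.0139). With 1 library left out at a time the calls numbered 0 to 3 upward and 2 to 5 downward. No member was called higher without the H1 dorsal neuron or the HUES9 RABC library, and 2 were called lower without either of these, the H1 RASS or the HUES9 ventral library. The calls ended in HUES9 libraries alone. The shares of all genes called in these fits are not given here. Whether members lost calls more than other genes was therefore not compared. All neuron libraries lay below all progenitor libraries for 13 members (17.4% of genes) and above them for 7 (21.2%).

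In the first step, from srNMPs to 7-day progenitors, most members had lower values but 1 passed the test. The difference was below 0 for 74 of 80 members and 46.3% of all genes, with a median of -0.37 beside 0.02. An unadjusted p under 0.05 was found for 35 members and 23.9% of all genes. UQCRHL alone passed adjustment (-0.84 ± 0.13, limma adjusted p = 0.0296), where 1.69% of all genes were called lower and 1.73% higher. COX7A2 (-0.62 ± 0.19, limma adjusted p = 0.119) and COX8A (-0.48 ± 0.16, limma adjusted p = 0.132) were among those that did not. Every progenitor library lay below every srNMP library for 31 of 80 members and 8.11% of all genes, and above it for 0 members and 8.95% of genes. The count depended on the H1 passage 8 srNMP library: without it 49 members and 7.65% of all genes were called lower. Without the HUES9 passage 8 one 1 member was (0.524% of genes), and the member median was -0.21. The UQCRHL call was lost without either library of either induction or without the H1 passage 25 library.

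No member was called by limma between the parallel cultures. RASS against RABC progenitors gave 0 (0.318% of genes called higher, 0.198% lower), ventral against dorsal neurons 0 (1.47% and 0.573%), and passage 25 against passage 8 srNMPs 0 (0% of genes either way). At an unadjusted p under 0.05 there were 0, 2 and 0 members in these comparisons. The passages moved in opposite directions in the lines. From passage 8 to 25 the median member differed by 0.24 in H1, with 73 of 80 above 0, and by -0.67 in HUES9, with 74 of 80 below 0. Of all genes 52.2% and 55.5% were above 0, with medians of 0.01 and 0.05. The HUES9 difference starts from the passage 8 library that stands apart. Each line has 1 library per passage, so the difference between the lines was not tested.

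srNMPs were set against the ESC library, the state they are derived from. SDHD, the membrane anchor of complex II, was at 55.1 FPKM in ESCs and at 17.5, 28.9, 19.7 and 18.7 FPKM in srNMPs, each below the ESC value. It was the only member called (-1.29 ± 0.30, limma adjusted p = 0.0275), where 7.93% of all genes were called lower and 8.73% higher. The median was -0.20 for members and 0.07 for all genes. SDHB was at 74.0 FPKM in ESCs and 44.5 ± 8.60 in srNMPs (-0.71 ± 0.25, limma adjusted p = 0.0962), and NDUFV1 at 68.3 and 68.0 ± 9.37 FPKM (0.01 ± 0.23, limma adjusted p = 0.981). The count depended on the HUES9 passage 8 library: 20 members and 8.42% of all genes were called lower without it. Without the H1 passage 8 library 4 were called lower (8.94% of genes), and without the HUES9 passage 25 one 0 were (5.68%).

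SDHD and COX8A are shown as members whose upstream regions hold letters bound by regulators known for nuclear respiratory genes. The windows are the 250 bases before the RefSeq starts in GRCh38.p14, on chr11:112086623-112086872 for SDHD and chr11:63974370-63974619 for COX8A, both on the plus strand. Capitals mark the NRF1 palindrome, ETS (CCGGAAGT, seen here on the other strand as ACTTCCGG) and E-box (CANNTG) matches.
SDHD: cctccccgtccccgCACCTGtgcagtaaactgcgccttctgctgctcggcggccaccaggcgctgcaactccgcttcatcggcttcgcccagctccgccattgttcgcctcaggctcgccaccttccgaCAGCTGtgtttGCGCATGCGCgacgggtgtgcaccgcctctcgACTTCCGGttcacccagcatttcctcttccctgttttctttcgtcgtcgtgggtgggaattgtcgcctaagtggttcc
COX8A: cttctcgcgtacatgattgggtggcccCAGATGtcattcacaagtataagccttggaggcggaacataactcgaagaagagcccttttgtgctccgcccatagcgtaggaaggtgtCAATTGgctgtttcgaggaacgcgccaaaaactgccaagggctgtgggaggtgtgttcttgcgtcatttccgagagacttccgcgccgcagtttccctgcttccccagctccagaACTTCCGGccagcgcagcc
SDHD holds 1 NRF1, 1 ETS and 2 E-box matches and COX8A 1 ETS and 2 E-box matches in these windows; the letters of an estrogen-related receptor element (TGACCTTG) lie in the 50 bases after each start.

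Promoters of 67 of the 83 members matched the RefSeq table, with both strands searched over 250 bases before and 50 after the start. The NRF1 letters were in 4 member promoters, ATP5F1C, NDUFA8, NDUFB4 and SDHD, 5.97% of those matched, beside 2.20% for all tested genes. ETS letters were in 10 members or 14.9% (8.06% of tested genes), the receptor element in 4 or 5.97% (0.731%) and the E-box in 42 or 62.7% (60.6%). A window without a match lacks only these exact letters.

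Across the 15 libraries most members varied together. The correlation of a member's log2 level with the mean of the other members had a median of r = 0.87, and 66 of 80 members exceeded 0.7. The libraries share states, lines and scaling, and no correlation of this kind was computed for other genes. With totals made equal the median was 0.76 and 48 of 80 members exceeded 0.7. COX7C and COX6B1 followed the rest most closely, each at 0.98. The members that followed it least were COX6A2 (r = -0.67), COX6B2 (-0.08), NDUFS1 (0.03) and NDUFA10 (0.27).

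**Figure D5:**
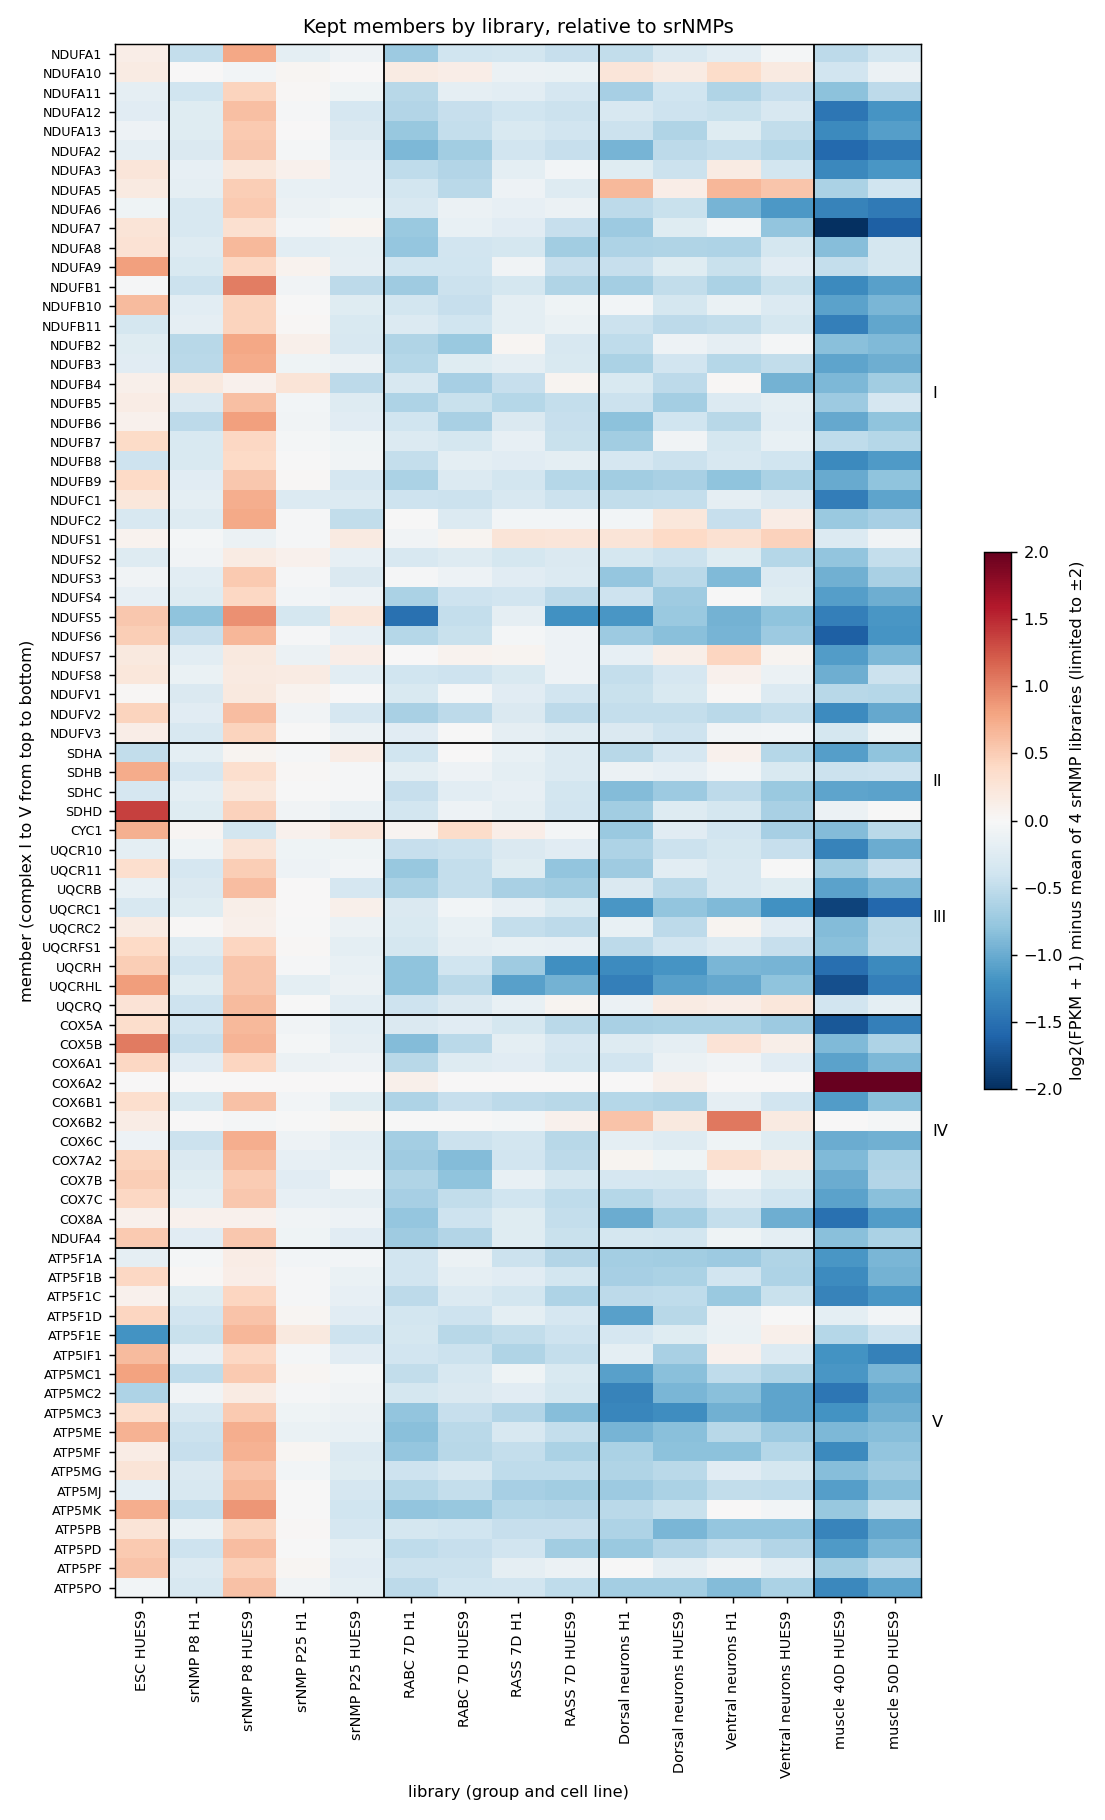
log2(FPKM + 1) of 80 members (y axis, complex I to V from top to bottom) in 15 libraries (x axis), as the difference from the mean of the 4 srNMP libraries, with colours limited to ±2. Blue, lower than srNMPs, fills most of the 2 muscle columns, where COX6A2 is the one strongly red row, and the HUES9 passage 8 srNMP column is red, higher, for most members.

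Other mitochondrial genes in muscle against srNMPs mostly went the way of the subunits. Of subunits and carriers outside the symbol rule, COX4I1, the common form of a core-binding oxidase subunit, fell from 219 to 375 FPKM in srNMPs to 133 and 166 FPKM in muscle (-0.88 ± 0.23, limma adjusted p = 0.0151). NDUFAB1 (-1.40 ± 0.30, limma adjusted p = 0.00726), the acyl carrier protein bound to complex I, and CYCS (-0.83 ± 0.26, limma adjusted p = 0.0354), cytochrome c, fell too. NDUFA4L2, a hypoxia-inducible relative of NDUFA4, rose (1.53 ± 0.44, limma adjusted p = 0.0232), to 2.74 and 3.22 FPKM or 6.71% and 6.84% of the pair. It was also higher in neurons than in srNMPs (1.25 ± 0.34, limma adjusted p = 0.0189), at 1.34 to 6.87 FPKM beside 0.316 to 1.54. These ranges overlap: H1 neurons were at 4.15 and 6.87 FPKM and HUES9 neurons at 1.47 and 1.34 FPKM. COX4I2, the other form of COX4, was listed at 0 in every library except muscle at day 50, where it was 0.033 FPKM.

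In muscle against srNMPs 31.6% of all genes were called lower and 18.2% higher. Of 46 assembly factors tested, 27 were called lower in muscle and 0 higher, led by SDHAF3 (-2.15), TTC19 (-1.89) and ATPAF1 (-1.64), which serve complexes II, III and V. Of 16 citrate cycle genes 10 were lower and 0 higher, among them SUCLG2 (-1.56) and citrate synthase CS (-1.33). Import and chaperone genes had 13 of 16 lower, with the paired chaperonins HSPE1 (-2.32) and HSPD1 (-2.13) in front. Among 18 regulators of mitochondrial biogenesis 7 were lower, a share near that background. They included SSBP1 (-1.52) and TFAM (-1.33), which bind and maintain mitochondrial DNA. The coactivators PPARGC1A (0.59 ± 0.21, limma adjusted p = 0.0472) and PPARGC1B (0.73) were the 2 called higher. PPARGC1A was at 0.745 and 1.36 FPKM in muscle and 0.0891 to 0.808 in srNMPs. These values are low and their ranges overlap, so its call carries little weight.

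In neurons against srNMPs, where 23.2% of all genes were called lower, the same lists gave 12 of 46 assembly factors lower, a share near that background, and 1 higher, COX20 (1.47), and 11 of 16 import and chaperone genes lower and 0 higher, led by HSPD1 (-1.55). Citrate cycle genes were split, with 9 lower, SUCLG2 (-2.58) first, and 3 higher. Of 18 biogenesis regulators 5 were lower, also near the background, and 2 higher. These were ESRRG (1.31) and ESRRB, receptors of the family that binds the receptor element above; ESRRB reached 1 FPKM in neurons alone, ranged there from 0.0703 to 2.43 FPKM, and passed the filter through them, so its call is no support. Of 9 hypoxia-responsive genes tested, 1 was called in each direction in neurons, where 28.8% of all genes were called higher and 23.2% lower. In muscle 3 were higher and 1 lower, beside 18.2% and 31.6% of all genes. The glucose transporter SLC2A1 was the one called lower, at 14 to 77.1 FPKM in neurons, 3.93 and 4.59 FPKM in muscle and 161 to 443 FPKM in srNMPs.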

How the data were processed

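Per the labels' protocols, RNA of integrity number above 7 was made into TruSeq Stranded mRNA libraries and read on an Illumina NovaSeq. The authors deposited 1 table of FPKM for 17999 gene symbols. The submitters' processing notes list HISAT2, Cufflinks, Trimmomatic and HTSeq, and build hg18; settings, the strand setting and versions are not given in the sources used here. The table's column headed H1 matched no sample, so 1 value column was not used. The 13 mitochondrially encoded subunits were not analysed here.

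FPKM were used as deposited. They hold no counts, so depth was taken from low values: over 724 genes and 3129 values of at most 0.1 FPKM, 96.1% were whole multiples of the smallest within 2%. Genes with 1 FPKM or more in at least 1 library (14129) were fitted as log2(FPKM + 1) in limma 3.58.1 under R 4.3.3, with 1 mean per group, a cell line term (the replicate block) and a variance trend (5 residual and 2.16 prior degrees of freedom). A state mean averages its 2 groups. Tests were two-sided, adjusted by Benjamini-Hochberg over all genes, and called under 0.05; adding 1 FPKM shrinks the differences of low genes. ESC and muscle libraries have no replicate, and their spread is taken to equal that of the rest. Pairing comes from the cell line in the labels; over 15 pairs of groups, the correlation of line differences was -0.53 to 0.38 (median 0.10). The fit was tested on simulated data.

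Members and gene lists were chosen with earlier results of these data known. Named members are 1 anchor per complex, the isoform pairs, and per comparison the 5 largest called changes each way with a mean of at least 5 FPKM; other lists give counts and up to 3 genes. SDHA, ATP5MC1, NDUFS5, NDUFA10, COX7C, some values of SDHD, SDHC, UQCRH and the c subunit genes, and the 4 printed promoters were chosen after values were seen. Transcript lengths are GENCODE medians of protein-coding transcripts. Promoters come from RefSeq on GRCh38.p14, not the build of the files. Alternatives were scaling to equal totals, quantile normalization, a pseudocount of 0.1, no filter, no variance trend, no block, HUES9 libraries only, the libraries of the contrast only, and leaving out each replicate.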

Additional observations from a re-analysis of the deposited data

Results flagged for a closer look

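Of 108 groups of 4 libraries checked for 1 value far from the other 3, 11 had one; chance flags about 1 in 20 groups. The HUES9 passage 8 srNMP library was the high value in 6 of them. There, complex IV summed to 2103 FPKM (others 1264 to 1376), COX6A1 was at 344 FPKM (219 to 239), COX7A2 at 77.0 (40.2 to 43.9), NDUFA4 at 99.6 (58.3 to 64.6), NDUFA5 at 13.5 (8.10 to 8.30) and UQCRHL at 44.4 FPKM (25.1 to 27.7). Among neurons ATP5F1B stood at 335 FPKM in the H1 ventral library, with the others at 276 to 284. The rest were values close to 0: COX6A2 at 0.0759 FPKM in the H1 RABC library and 0.0771 in the HUES9 dorsal neuron library with the others at 0, COX6B2 at 0.0851 FPKM in the HUES9 RASS library (others 0 to 0.0135), and COX8C at 0.261 FPKM in the H1 RABC library (others 0).

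From passage 8 to passage 25 the median member differed by 0.237 in H1 and by -0.675 in HUES9, in opposite directions. With 1 library per line and passage this difference was not tested.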

How the results depend on the processing

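Counts are of the 80 members called. The share of all genes called also changes with the setting and is given above for only some of them. A count that moves here is therefore no sign that the members moved apart from other genes. Without the replicate block (the cell line term), the 44 named calls all kept their direction and stayed past the threshold, and 58 members were lower in muscle than in srNMPs (60 with it). No named call reversed under any alternative run. At equal totals 38 of the 44 still passed; counts were 1 higher and 3 lower for srNMPs minus ESCs, 7 and 3 for neurons minus progenitors, and 7 and 14 for neurons minus srNMPs, while the log2 difference of summed FPKM between muscle and srNMPs moved from -0.69 to -0.39 for complex II and from -1.17 to -0.86 for complex III. Equal totals moved the median of all genes from 0.05 to 0.29 in neurons minus srNMPs, from 0.02 to 0.15 in progenitors minus srNMPs and from -0.22 to -0.01 in muscle minus srNMPs. Quantile normalization gave 2 higher for srNMPs minus ESCs, 6 higher for neurons minus progenitors, 1 higher and 18 lower for neurons minus srNMPs and 2 higher for muscle minus neurons. Without the filter on low values 3 were lower for srNMPs minus ESCs, and 2 were higher in each muscle comparison. HUES9 libraries alone gave 0 lower for srNMPs minus ESCs, 0 lower for progenitors minus srNMPs, 0 either way for neurons minus progenitors, 0 higher and 10 lower for neurons minus srNMPs and 8 lower for muscle minus neurons. The libraries of a contrast alone gave 0 lower for srNMPs minus ESCs and for progenitors minus srNMPs, 5 higher and 10 lower for neurons minus progenitors, 0 higher and 17 lower for neurons minus srNMPs, 1 lower for muscle minus srNMPs and 17 lower for muscle minus neurons; fewer libraries leave fewer degrees of freedom. Leaving out 1 replicate at a time gave 0 to 2 higher and 0 to 20 lower for srNMPs minus ESCs, 0 to 49 lower for progenitors minus srNMPs, 0 to 3 higher and 2 to 5 lower for neurons minus progenitors, 0 to 3 higher and 12 to 59 lower for neurons minus srNMPs, 31 to 72 lower for muscle minus srNMPs and 6 to 24 lower for muscle minus neurons. Where no construction is named, the cause was not tested. The ESC library was not left out, since its comparison would have no reference.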
